A study of Equus caballus with 12 samples.

Results

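The miRNAs of the imprinted DLK1-DIO3 locus were examined in heart, lung and liver of the horse. Members were chosen by name alone: a known horse miRNA belonged to the cluster when its number was one of 48 numbers that the locus carries, with any letter or arm suffix. The table of the authors held 41 such entries among 294 known horse miRNAs and 629 entries in all, and 335 entries were named only by their sequence. The 12 libraries came from left ventricle of the heart, caudal lobe of the right lung and right lobe of the liver of 4 untreated Polish cold-blooded stallions aged 1 to 2 years (horses 27, 30, 32 and 34), 1 library per tissue and horse. All were bulk tissue from a slaughterhouse, so that fewer cells of a type and less RNA per cell cannot be told apart. Each comparison asked which miRNAs differ between 2 of the tissues, and the 3 comparisons share their libraries.

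The DLK1-DIO3 locus is an imprinted region, in which one parental chromosome expresses protein-coding genes (DLK1, RTL1, DIO3) and the maternal one expresses long non-coding RNAs and the largest known group of mammalian imprinted miRNAs. Near MEG3, several of the miRNAs lie antisense to RTL1 and pair perfectly with its mRNA, and a longer array named after miR-379 and miR-410 follows downstream in MIRG. The cluster is best known from brain, placenta and embryo. All 41 entries matched a miRNA gene in the RefSeq gene table of the horse (assembly TB-T2T), and all 41 genes lie between DLK1 and DIO3 on chromosome 24. RefSeq places 48 miRNA genes there, and 7 of them had no entry in the table used here (MIR770, MIR337, MIR431, MIR1197, MIR1193, MIR544-2 and MIR496). Of 5 miRNA genes within RTL1, 4 were listed, namely miR-433, miR-127, miR-432 and miR-136. Of the 48 numbers, 36 had an entry.

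The values were counts normalized by the authors with one factor per library, called normalized counts here. In each library they were multiples of one step, a sixth of the lowest value above 0, so that a 0 means that a miRNA had fewer than 6 reads. From this step the table held 8113895 to 9355513 reads per heart library, 3536536 to 7560746 per lung library and 3066869 to 8595569 per liver library. Of these reads the cluster itself took 8354 to 14871 per heart library, 4144 to 13354 per lung library and 16680 to 37524 per liver library, and 6 reads were worth between 3.71 and 11.1 normalized counts, the most in liver of horse 27. The tissue labels matched their marker miRNAs: the summed level of 6 cardiomyocyte miRNAs was 5460419 to 8413935 in heart and at most 12572 elsewhere, that of 3 hepatocyte miRNAs 983907 to 1394321 in liver and at most 3278 elsewhere, and that of 9 lung epithelial miRNAs 85446 to 121838 in lung and at most 7499.8 elsewhere. miR-208b, a miRNA of a cardiac myosin gene, was at 0 in all lung and liver libraries. miR-208a, also among the 6, was at 0 there too, but in heart it was listed in horse 27 only (255). Among other cell types, 5 listed leukocyte miRNAs summed to 30464 to 89300 in lung against 11350 to 13414 in heart and 12462 to 21814 in liver, 3 endothelial ones to 336150 to 681325, 144408 to 553620 and 114762 to 181135 in that order, and 2 red blood cell ones to 25239 to 66840, 66906 to 160133 and 4149.8 to 6888 in that order. The sums of 6 smooth muscle and mesenchymal and 4 neural miRNAs overlapped among the tissues, and the part of any of these cell types in the cluster's levels was not tested.

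The cluster was a minor fraction of the miRNA pool in each tissue and was highest in liver. Its summed level amounted to 0.556, 0.625, 0.459 and 0.431% of all known miRNAs in liver of horses 27, 30, 32 and 34. In heart the same share was 0.183, 0.104, 0.131 and 0.137%, and in lung it was 0.134, 0.188, 0.136 and 0.123%. All liver libraries therefore lay above all others, while heart and lung overlapped. This share does not depend on how libraries are scaled against each other, but it does depend on the other miRNAs: 9 cardiomyocyte and hepatocyte miRNAs alone held 52.9 to 62.0% of the known miRNA level in heart, 21.8 to 25.2% in liver and 0.197 to 0.377% in lung. With these 9 left out, the cluster took 0.552 to 0.806% in liver, 0.248 to 0.483% in heart and 0.123 to 0.188% in lung, and all 3 tissues stood apart.

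Members differed in level by several orders of magnitude. The 4 highest, miR-379, miR-411, miR-127 and miR-3959, made up 53.1 to 64.6% of the cluster in heart libraries, 50.2 to 65.9% in those of lung and 43.2 to 57.3% in those of liver. Of the 41 members, 29 were above 0 in all 12 libraries, and 24 reached a mean of 100 normalized counts in at least 1 tissue. All 4 libraries were above 0 for 36 members in liver, 31 in lung and 30 in heart. The liver mean was the highest for 38 of the 41; the exceptions were miR-433, miR-485-5p and miR-134, which were highest in heart. Values of miRNAs that differ by a letter (miR-329a and b, miR-376a to c, miR-487a and b, miR-154a and b) are uncertain as to which of them a read belonged to, since their sequences are nearly alike.

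**Figure D1:**
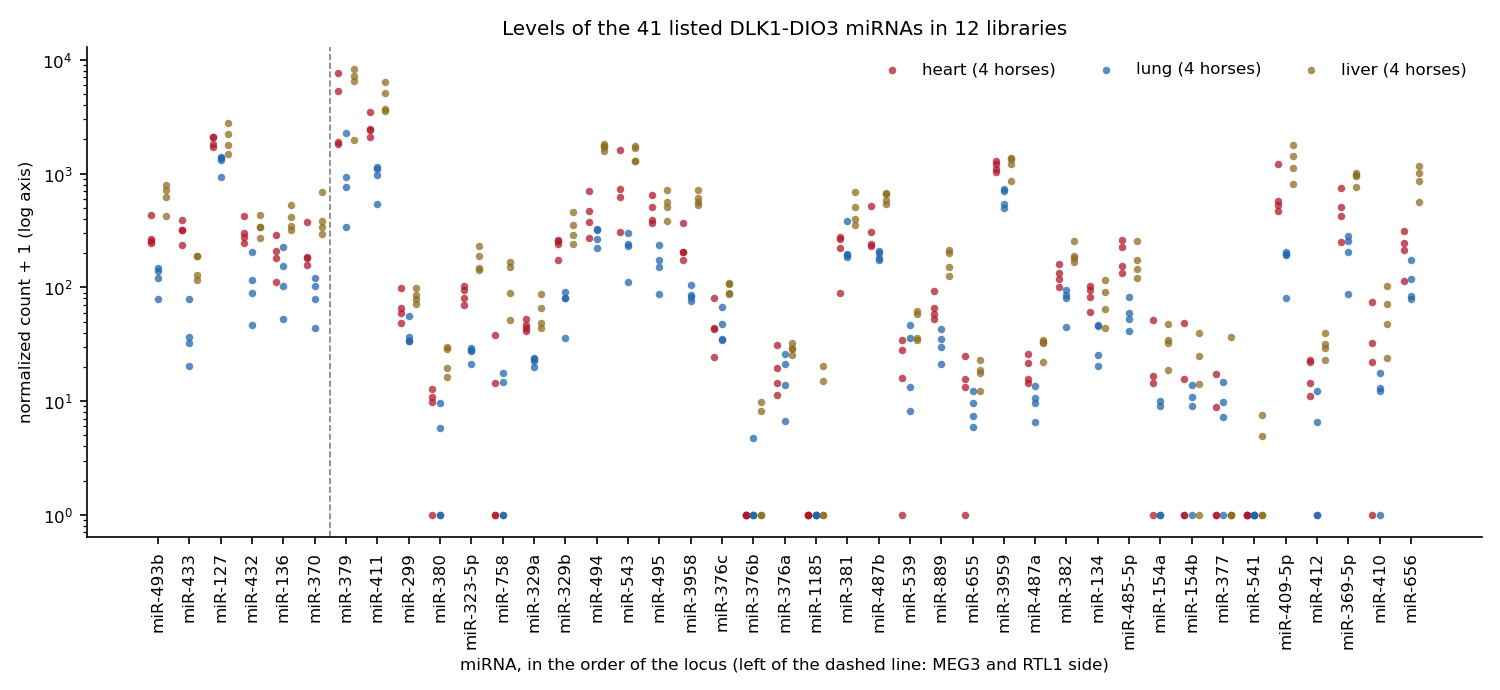
Normalized count plus 1 (log axis) of each of the 41 members in the order of the locus, with a point for each library, red for heart, blue for lung and brown for liver. Points at the bottom are values of 0; liver points are the highest for most members, and miR-433 is an exception with all 4 heart points above all liver points.

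A value of 10 or more in 4 or more libraries was required for a test, which 37 members and 256 known miRNAs in all passed, and limma was fitted to log2(normalized count + 1). A miRNA was called at a Benjamini-Hochberg adjusted p below 0.05 and a log2 difference of at least 1 in size. Members not tested were miR-1185, miR-376b, miR-377 and miR-541. On this scale a difference understates the change of members whose values are low but above 0 in all libraries compared. Where some values are 0, it can instead overstate the change. For miR-539 in heart versus liver the log2 difference was -2.05, while the means of 18.9 and 46.8 differed 2.47-fold.

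With the scaling of the authors, lung stood furthest from liver. In the lung versus liver comparison 30 of the 37 tested members were downregulated in lung and 0 were upregulated (0 also at an unadjusted limma p below 0.05), where 26.6% of all tested miRNAs were called lower and 25.0% higher. The median log2 difference of the members was -2.03, against 0.08 for all tested miRNAs, and each of the 37 differences was below 0, from -4.69 to -0.70. In 30 members all lung libraries lay below all liver libraries, as did 27.0% of all tested miRNAs. Without the filter on low values the count was again 30 of 41 (73.2%), against 23.8% of the 294 miRNAs then tested. The median of the 41 members was then -1.78, against 0.08 for the 294 miRNAs. Of the members' differences, 40 were below 0 and 1 was above 0, at 1.21. The uniform direction therefore held only for the members that passed the filter. With every library rescaled to the same total of known miRNAs, 27 members were lower and 0 higher, against 25.0% and 27.0% of all tested miRNAs. miR-299, miR-376c and miR-381 were no longer called under this scaling, with log2 differences of -0.92, -0.96 and -0.89 in place of -1.08, -1.13 and -1.06.

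miR-411, part of the array that starts with miR-379, was the second most abundant member. Its normalized counts were 966, 1092, 1132 and 543 in lung of horses 27, 30, 32 and 34. In liver they were 6412, 5063, 3565 and 3666. In heart they were 3484, 2442, 2433 and 2105. The 3 tissues did not overlap, and the liver mean of 4676 ± 1344 (SD, n = 4) was 5.01 times the lung mean of 933 ± 269 (log2 difference -2.34, SE 0.29, limma adjusted p = 3.56e-05).

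miR-379 itself, the most abundant member, varied far more between horses. Its values were 932, 2280.2, 763 and 335 in lung, 8258, 7156, 1983 and 6464 in liver, and 5309, 1907, 1833 and 7693 in heart. The lung of horse 30 lay above the liver of horse 32, and heart overlapped both other tissues. The liver mean was still 5.54 times the lung mean (log2 difference -2.61, SE 0.67, limma adjusted p = 0.00585).

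By the largest change among called members without overlap and with a liver mean of at least 100, miR-758, miR-656, miR-409-5p, miR-543 and miR-3958 led the comparison of lung with liver. miR-656, the last member of the array, had 77.3, 82.8, 117 and 174 normalized counts in lung and 858, 1018, 1157 and 557 in liver, a 7.95-fold difference of means (log2 difference -3.01, SE 0.38, limma adjusted p = 3.98e-05). miR-409-5p had 204, 195, 192 and 79.2 in lung and 1413, 1771, 812 and 1114 in liver (7.64-fold, log2 difference -2.96). miR-543 had 299, 229, 239 and 111 in lung and 1678, 1744, 1279 and 1286 in liver (6.82-fold, log2 difference -2.84). In each of these, all lung libraries lay below all liver libraries. miR-3958 behaved alike, with 74.9, 81.0, 104 and 84.9 in lung and 719.6, 612, 533 and 557 in liver (7.03-fold, log2 difference -2.80, limma adjusted p = 3.54e-06). miR-494 varied little in liver, with 1711, 1577, 1740.4 and 1827 there and 328, 317, 222 and 266 in lung (6.05-fold, log2 difference -2.61).

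miR-758, which has been described as a regulator of the cholesterol transporter ABCA1, was listed in liver at 149.8, 167, 87.4 and 50.2 normalized counts. In lung it was at 13.7, 0, 16.8 and 0, and in heart at 37.3, 0, 13.4 and 0. Horses 30 and 34 thus had fewer than 6 reads in both heart and lung, and all liver libraries lay above all others. Its fitted differences (-4.69 for lung and -4.42 for heart against liver, limma adjusted p = 0.0112 and 0.0171) were the largest of the members, but they depend on the pseudocount because of these zeros.

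At the other end stood members with small differences between lung and liver. miR-127, one of the miRNAs antisense to RTL1, had 1392, 1367, 1304 and 941 normalized counts in lung and 1779.7, 2789.6, 2209.7 and 1473 in liver. The groups did not overlap, yet the difference was 1.65-fold (log2 difference -0.70, SE 0.23, limma adjusted p = 0.0207), below the fold that a call required. miR-3959 likewise had 499, 705, 728 and 535 in lung and 1223, 1382, 858 and 1343 in liver (1.95-fold, log2 difference -0.96, limma adjusted p = 0.00254). With a total that left out the 9 muscle and liver miRNAs it was called, at -1.16. The other members not called were miR-154b, miR-376a, miR-410, miR-539 and miR-655, whose means were at most 60.6 in any tissue. With the horse as a replicate block miR-410 was called (limma adjusted p = 0.00717, against 0.0771 without), and miR-376c and miR-381 were not (adjusted p = 0.0527 and 0.0578, against 0.0214 and 0.0428).

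**Figure D2:**
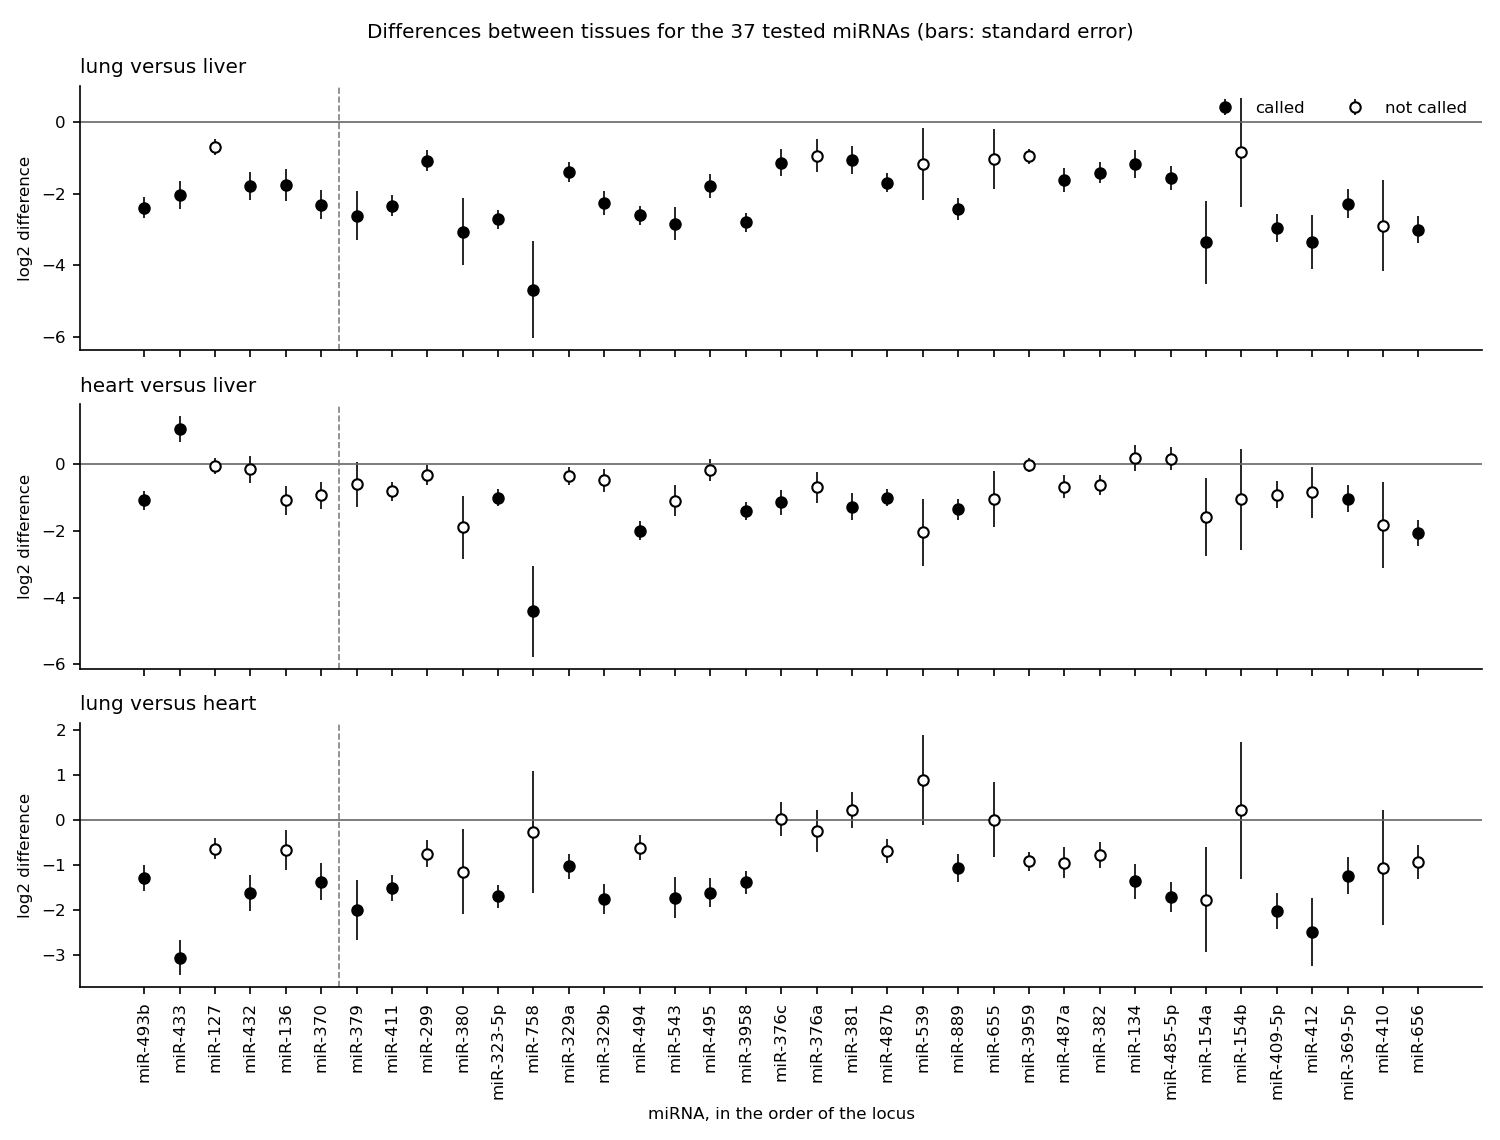
Log2 difference of each of the 37 tested members in the 3 comparisons, in the order of the locus, with the standard error as a bar, and filled points for calls. All points of lung versus liver lie below 0, miR-433 is the single filled point above 0 in heart versus liver, and the dashed line divides the MEG3 and RTL1 side from the array in MIRG.

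Heart and liver were closer with the scaling of the authors. With the same total per library this order turned. The members' median was then -2.14 for heart versus liver and -1.88 for lung versus liver, against -1.39 and 0.23 for all tested miRNAs. Of the 37 tested members, 11 were downregulated in heart (background 27.0% of all tested miRNAs) and 1 was upregulated (background 19.9%), so that the share of members called lower, 29.7%, was near that of all miRNAs. The median log2 difference was -1.0, against -0.23 for all tested miRNAs. In 16 members all heart libraries were below all liver libraries, as were 32.4% of all tested miRNAs, and in 1 member they were above. Without the filter on low values 10 of 41 (24.4%) were lower and 1 (2.44%) was higher, against 24.1% and 18.4% of the 294 miRNAs then tested. This comparison depended on single animals: without horse 30, 4 members (10.8%) were called lower against 23.0% of all tested miRNAs. Without horse 32, without the heart of horse 30 or without the liver of horse 32, 7 (18.9%) were, against 23.0, 25.8 and 24.2% of all tested miRNAs. In each of these fits the share of members lay below that of all miRNAs.

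Among called members without overlap and with a liver mean of at least 100, the largest decreases in heart were those of miR-758, given above, miR-656, miR-494, miR-3958 and miR-889. miR-656 had 313, 242, 211 and 113 normalized counts in heart, 4.08 times below liver on average (log2 difference -2.07, SE 0.38, limma adjusted p = 0.000635). miR-494 had 704, 469.6, 376 and 273 in heart, 3.76 times below liver (log2 difference -1.99, SE 0.28, limma adjusted p = 6.83e-05). All heart libraries of both lay below all liver libraries. miR-3958 had 364, 174, 202 and 202 in heart (log2 difference -1.41), and miR-889 had 92.0, 52.0, 64.8 and 57.2 in heart, 20.1, 29.1, 42.1 and 33.9 in lung and 199.8, 212, 126 and 149 in liver (log2 difference of heart from liver -1.36). Further downregulated members were miR-323-5p, miR-369-5p, miR-376c, miR-381, miR-487b and miR-493b. miR-493b had 266, 247, 254 and 427 in heart, 121, 148, 139 and 78.1 in lung and 710.4, 795, 420.1 and 626 in liver, so that 1 heart library lay above 1 liver library. miR-487b had 522, 239, 303 and 229 in heart, 199.7, 179, 173 and 208 in lung and 673, 537, 665 and 586 in liver. miR-369-5p had 507, 425, 748 and 247 in heart, 87.0, 202, 256 and 283 in lung and 955, 754, 1017 and 977 in liver. With the horse as a block, miR-369-5p and miR-376c were no longer called lower in heart (limma adjusted p = 0.066 and 0.0508, against 0.0488 and 0.0209).

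Among abundant members that were not called, miR-543 had 305, 623, 737 and 1617 normalized counts in heart and miR-409-5p had 526, 473, 571 and 1223. In both, the heart of horse 34 was the highest heart library, and heart overlapped liver. miR-495 had 390.4, 367, 509.7 and 653 in heart, 151, 172, 234 and 87.1 in lung and 559, 711, 379 and 505 in liver. miR-127, at 2109.8, 1702, 1811 and 2098 in heart, and miR-3959, at 1041, 1281, 1104 and 1201, were at about their liver levels (log2 differences -0.06, SE 0.23, and -0.03, SE 0.21, limma adjusted p = 0.838 and 0.895).

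miR-433 was the only tested member called higher in heart than in liver. Its normalized counts were 316, 233, 317 and 394 in heart, 189, 187, 116 and 126 in liver and 78.1, 35.2, 31.6 and 19.2 in lung. The 3 tissues did not overlap. The heart mean was 315 ± 65.5 (SD, n = 4) and the liver mean 155 ± 38.9 (log2 difference 1.03, SE 0.39, limma adjusted p = 0.0421), and the call was lost with the horse as a block (adjusted p = 0.0508), with TMM scaling (log2 difference 0.88, adjusted p = 0.0635), with a total that left out the 9 muscle and liver miRNAs (0.67, adjusted p = 0.155) and in 11 of 16 fits that left out a horse or a library. With the same total per library the difference turned to -0.18 (adjusted p = 0.689). Its neighbours antisense to RTL1 were not called between heart and liver: miR-432 had 278, 244, 302 and 421 in heart and 340.4, 433, 270.2 and 337 in liver (log2 difference -0.16), and miR-136 had 285, 178, 209 and 109 in heart and 348, 416, 531 and 316 in liver (log2 difference -1.09, limma adjusted p = 0.0542).

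In lung versus heart, 18 of the 37 tested members were downregulated in lung and 0 upregulated (0 also at an unadjusted limma p below 0.05), against 19.1% and 19.5% of all tested miRNAs. The median log2 difference was -1.08, against 0.00 for all tested miRNAs. In 20 members all lung libraries lay below all heart libraries, as did 21.9% of all tested miRNAs. These directions rest on the scaling of heart: with the same total per library, 1 member was lower and 2 were higher, against 6.25% and 48.4% of all tested miRNAs, and the median of the members turned to 0.14, while the median of all tested miRNAs moved to 1.24. Among called members without overlap and with a heart mean of at least 100, the largest decreases were those of miR-433 (7.68-fold, log2 difference -3.07, SE 0.39, limma adjusted p = 4.83e-05), miR-409-5p (-2.04), miR-543 (-1.74), miR-329b (-1.77) and miR-485-5p (-1.72). miR-329b had 78.9, 80.4, 89.1 and 35.1 normalized counts in lung, 262, 174, 239 and 256 in heart and 461, 351, 287 and 238 in liver. miR-485-5p had 80.5, 58.1, 40.0 and 52.0 in lung, 133, 155, 226 and 257 in heart and 144, 171, 255 and 120.2 in liver. Of these members, miR-433 was the one still called with the same total per library (log2 difference -1.70, adjusted p = 0.00191).

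Libraries differed in composition, and miR-1 alone reached 4465396 to 7824377 normalized counts in heart. With the same total per library the median of all tested miRNAs was -1.39 for heart versus liver, 0.23 for lung versus liver and 1.24 for lung versus heart. With the scaling of the authors, the members' median lay at -0.77, -2.11 and -1.08 relative to the median of all tested miRNAs in these comparisons. A factor per library moves both medians nearly alike, so that this distance is not a test of the scaling.

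**Figure D3:**
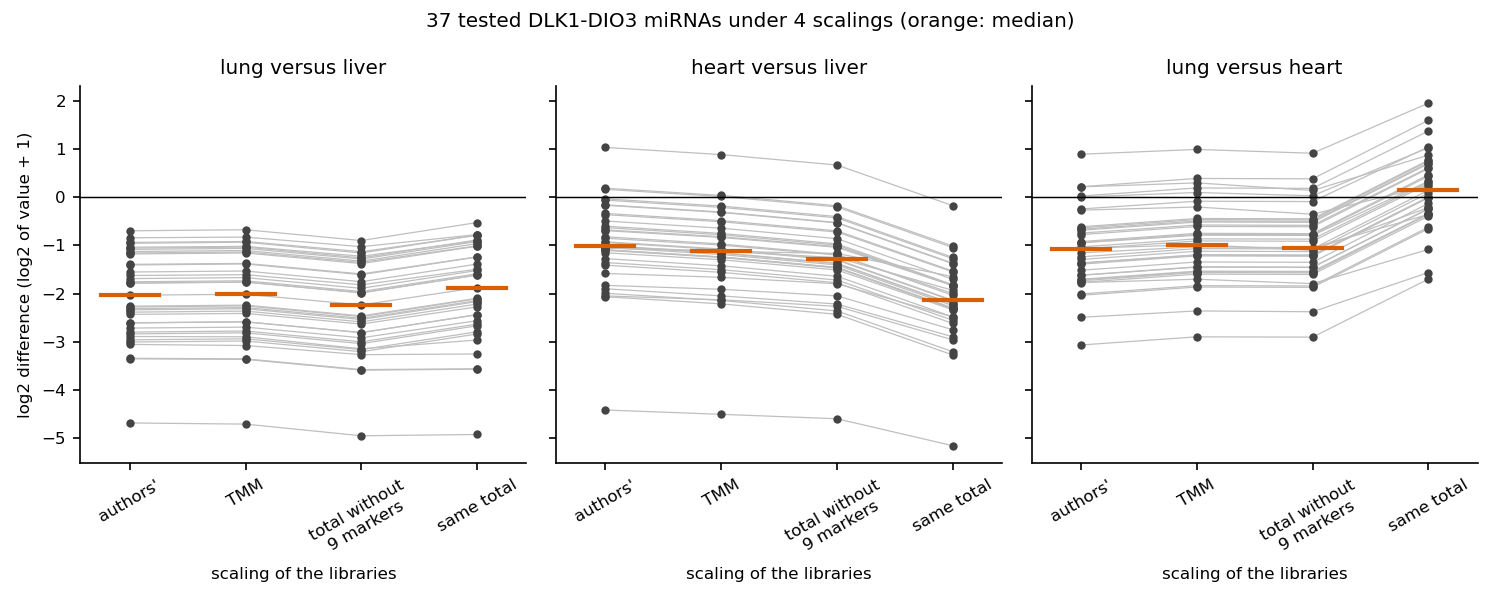
Log2 differences of the 37 tested members under 4 ways of scaling the libraries, with grey lines joining the values of a member and an orange bar for the median. In lung versus liver all points stay below 0, whereas in lung versus heart the median moves from -1.08 to 0.14 when each library has the same total.

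Members whose call changed with scaling are given with both values. With the same total per library 32 members were lower in heart than in liver and 0 were higher (0 also at an unadjusted limma p below 0.05), where 53.9% and 10.2% of all tested miRNAs were called. The members gained on the MEG3 and RTL1 side were miR-127 (log2 difference -0.06, moving to -1.28), miR-136 (-1.09, to -2.30), miR-370 (-0.94, to -2.15) and miR-432 (-0.16, to -1.37). In the array the gained members of higher level were miR-379 (-0.60, to -1.82), miR-411 (-0.82, to -2.04), miR-3959 (-0.03, to -1.25), miR-543 (-1.10, to -2.32), miR-409-5p (-0.93, to -2.14), miR-495 (-0.17, to -1.38), miR-329b (-0.49, to -1.70), miR-382 (-0.63, to -1.84) and miR-485-5p (0.16, to -1.05). Those of lower level were miR-134 (0.19, to -1.01), miR-299 (-0.34, to -1.53), miR-329a (-0.36, to -1.55), miR-376a (-0.69, to -1.84), miR-380 (-1.90, to -2.90), miR-487a (-0.68, to -1.83), miR-539 (-2.05, to -2.96) and miR-655 (-1.04, to -1.93). With TMM scaling 4 members were gained in this comparison, miR-136 (-1.24), miR-370 (-1.09), miR-409-5p (-1.07) and miR-543 (-1.25). With a total that left out the 9 muscle and liver miRNAs the same 4 and miR-411 (-1.19) were gained. Members lower in heart then numbered 15 and 16 of 37, against 31.2 and 35.2% of all tested miRNAs.

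In lung versus heart the same total per library removed 17 calls. The differences moved from -1.36 to -0.0044 for miR-134, a miRNA known from dendrites as a repressor of LIMK1, from -1.70 to -0.35 for miR-323-5p, from -1.77 to -0.39 for miR-329b, from -2.01 to -0.62 for miR-379, from -1.39 to -0.011 for miR-3958, from -2.04 to -0.65 for miR-409-5p, from -1.52 to -0.13 for miR-411 and from -2.49 to -1.56 for miR-412. They moved from -1.62 to -0.24 for miR-432, from -1.72 to -0.34 for miR-485-5p, from -1.62 to -0.24 for miR-495 and from -1.74 to -0.35 for miR-543. They turned above 0 for miR-329a (-1.03 to 0.31), miR-369-5p (-1.24 to 0.14), miR-370 (-1.37 to 0.0042), miR-493b (-1.29 to 0.088) and miR-889 (-1.08 to 0.28). miR-376c (0.02 to 1.37) and miR-381 (0.22 to 1.60) were called higher in lung under this scaling only. With TMM scaling, and with the total that left out the 9 miRNAs, 15 members remained lower in lung, all of them among the 18. Of all tested miRNAs, 17.6 and 16.8% were called lower under these scalings. The calls of miR-329a, miR-369-5p and miR-889 were lost (TMM log2 differences -0.87, -1.07 and -0.91).

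The order of the tissue means was liver, heart, lung for 32 of the 37 tested members, an order found in 18.75% of all tested miRNAs. miR-381 and miR-539 had the order liver, lung, heart, and miR-134, miR-433 and miR-485-5p had heart, liver, lung. With the same total per library, liver was highest for all 41 members. The order liver, heart, lung then held for 14 and liver, lung, heart for 23 of the 37, against 7.81 and 29.3% of all tested miRNAs. Of all tested miRNAs, 40.2% were highest in liver with the same total and 37.5% with the scaling of the authors. The place of liver at the top was therefore shared by both scalings for 38 of 41 members, and the order of heart and lung was not.

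The remaining members of lower level followed these patterns with more overlap. miR-323-5p had 102, 68.4, 79.4 and 94.2 normalized counts in heart of horses 27, 30, 32 and 34, while lung held 28.2, 27.2, 26.7 and 20.4, and liver 148, 230.1, 186 and 140.0. The 3 tissues did not overlap. miR-382 had values of 78.9, 94.6, 84.9 and 44.1 in lung, 132, 99.6, 159.8 and 118 in heart, and 189, 254, 164 and 182 in liver, again with no overlap. miR-134 stood at 82.1, 93.6, 59.2 and 103 in heart, 45.9, 45.1, 24.6 and 19.2 in lung, and 115, 89.3, 42.6 and 63.4 in liver, where liver overlapped both other tissues. miR-376c was at 79.6, 41.6, 42.5 and 23.6 in heart against 86.9, 87.7, 107 and 105 in liver, and its lung values of 33.8, 47.0, 33.7 and 66.8 overlapped those of heart. miR-381 was at 223, 87.7, 274 and 262 in heart, 182, 191, 383 and 193 in lung, and 684, 506, 351 and 402 in liver, so that heart lay below liver and lung overlapped both.

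Position within the locus was set against these values. On the MEG3 and RTL1 side 6 members were tested (miR-493b, miR-433, miR-127, miR-432, miR-136 and miR-370) and 31 in the array. In lung versus liver 5 of the 6 and 25 of the 31 were lower, with medians of -1.91 and -2.26. In heart versus liver 1 of the 6 and 10 of the 31 were lower, with medians of -0.55 and -1.01. In lung versus heart 4 of the 6 and 14 of the 31 were lower, with medians of -1.33 and -1.06. Of all tested miRNAs, 26.6, 27.0 and 19.1% were called lower in these comparisons, in that order. The difference between both sides was not tested. miR-370 had 180.3, 156, 182 and 372 normalized counts in heart, 102, 119, 78.6 and 43.0 in lung and 379, 693, 336 and 295 in liver, and lung lay below both other tissues. miR-136 had 51.5, 101, 153 and 227 in lung, where heart and lung overlapped, and miR-432 had 114, 203, 88.4 and 45.3 in lung, below all heart and liver libraries.

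The share of each member in the summed level of the cluster compares members within a library and needs no scaling between libraries. miR-127 took 21.9, 16.6, 19 and 20.1% of the cluster in lung of horses 27, 30, 32 and 34. It took 11.4, 13.7, 13.4 and 10.1% in heart and 5.77, 9.24, 11.1 and 6.17% in liver. It was the first member of the cluster by mean share in lung (19.4% ± 2.23, SD, n = 4) and the third in heart (12.2% ± 1.69) and liver (8.06% ± 2.53), after miR-379 and miR-411, and lung did not overlap the others. miR-379 took 28.7, 15.4, 13.6 and 37.1% in heart, 14.7, 27.6, 11.1 and 7.14% in lung and 26.8, 23.7, 9.93 and 27.1% in liver, with overlap among all tissues. miR-433 took 1.71, 1.88, 2.35 and 1.90% in heart, 1.23, 0.427, 0.460 and 0.410% in lung and 0.612, 0.621, 0.581 and 0.528% in liver. Heart was above the others in all 4 horses.

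The shares of 10 of the 41 members did not overlap between heart and liver. Shares within a library add to a fixed total, so that a larger share of one member lowers those of others. How many would stand apart by chance was not tested. miR-3958, miR-493b, miR-494, miR-656, miR-758 and miR-889 took a larger share in liver and miR-134, miR-3959, miR-432 and miR-433 in heart. Between lung and liver the shares of 10 members did not overlap either: miR-323-5p, miR-3958, miR-409-5p, miR-493b and miR-543 took more in liver, and miR-127, miR-299, miR-381, miR-382 and miR-3959 more in lung. miR-494 was at 3.81, 3.78, 2.78 and 1.32% in heart and at 5.55, 5.22, 8.72 and 7.65% in liver. miR-3959 was at 5.63, 10.3, 8.17 and 5.80% in heart, 7.84, 8.54, 10.6 and 11.4% in lung and 3.96, 4.58, 4.30 and 5.62% in liver, so that liver was below both. Between lung and heart 5 members stood apart, miR-127, miR-376c and miR-381 with more in lung and miR-323-5p and miR-433 with more in heart. miR-381 was at 2.86, 2.31, 5.59 and 4.13% in lung, above its 0.706 to 2.02% in heart and 1.68 to 2.22% in liver.

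**Figure D4:**
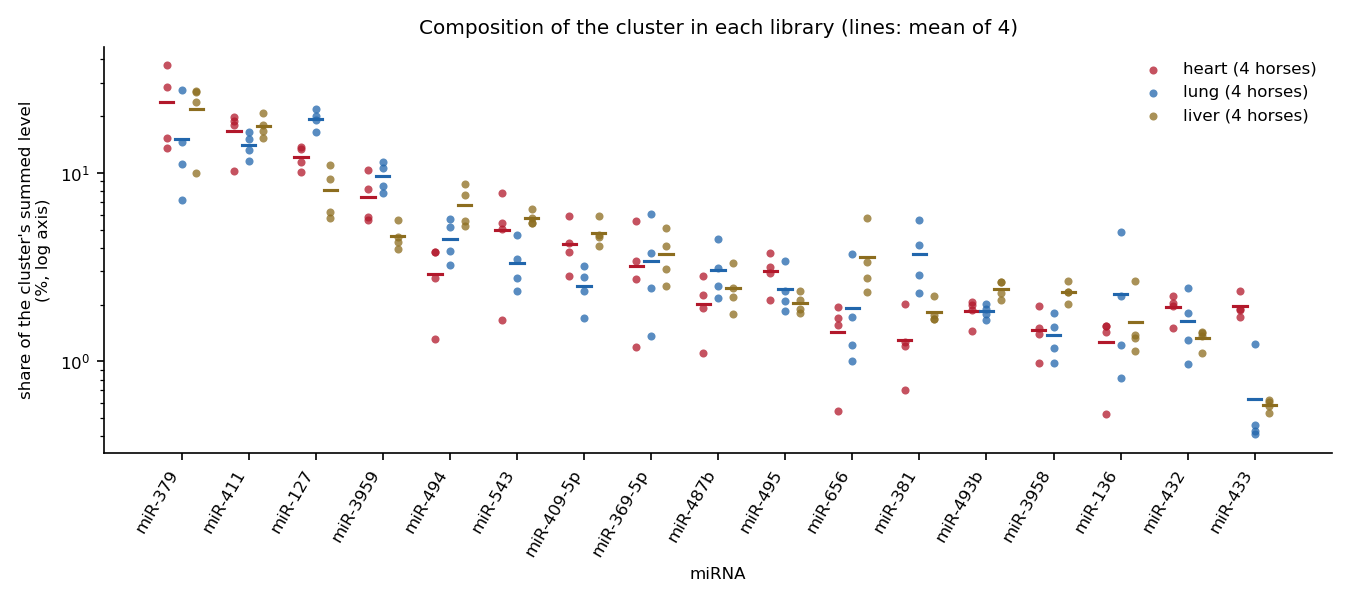
Share of the cluster's summed level (%, log axis) for the 16 members with the highest mean share and for miR-433, with a point per library and a line for the mean of 4 horses. miR-127 has its highest points in lung, miR-494 in liver, and all 4 heart points of miR-433 lie above the others.

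Several members were close to the detection limit of 6 reads. miR-1185 and miR-541 were at 0 in all heart and lung libraries and above 0 in 2 liver libraries each (19.3 and 14.0 for miR-1185 in horses 30 and 32, 6.61 and 3.96 for miR-541 in horses 32 and 34). miR-376b was at 0 in heart, at 3.71 in lung of horse 30 and at 7.24 and 8.81 in liver of horses 30 and 32. miR-377 was listed in 2 heart, 3 lung and 1 liver libraries, with 35.2 in liver of horse 32 as its highest value. No member was listed at 0 in all libraries of one tissue and above 0 in all 4 of another. Members at 0 were most numerous in heart of horse 34 (10 of 41) and lung of horse 34 (9), and none was at 0 in liver of horse 32. miR-380, miR-410, miR-412, miR-154a, miR-154b, miR-539, miR-655 and miR-758 were tested but had 1 or more zeros, and their standard errors (0.76 to 1.52) were larger than those of the 29 members above 0 in all libraries (0.21 to 0.67).

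Horses also differed in the cluster within a tissue. The deviation of each library from its tissue mean was taken on the log2 scale for the 29 members above 0 throughout. A first principal axis held 51.5% of the variance of these deviations, and on it lung of horse 34 (-3.50) and heart of horse 34 (2.78) lay at opposite ends. The axis set miR-379, miR-409-5p, miR-543, miR-370 and miR-432 against miR-136, miR-369-5p, miR-656, miR-376c and miR-376a. In heart of horse 34, miR-379, miR-409-5p and miR-543 were 1.15, 0.92 and 1.23 above the tissue mean, and miR-136, miR-369-5p and miR-656 were at -0.75, -0.85 and -0.87. In lung of horse 34 the same members were at -1.36, -0.98 and -0.89, and at 0.96, 0.58 and 0.70. The members therefore did not move as a unit between animals. Horse 34 showed opposite patterns in heart and lung, while its liver lay at -0.22 on this axis. For all 256 tested miRNAs the first axis held 27.3% of the variance and was led by lung of horse 34 and heart of horse 27. Lung of horse 34 had the lowest depth of the lung libraries, and the part of depth in its pattern was not tested. Without this library 27 members were lower in lung than in liver and 18 lower than in heart, and 13 were lower in heart than in liver, against 26.2, 20.3 and 28.1% of all tested miRNAs.

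Across the 12 libraries, the deviations of 2 members had a median Pearson correlation of 0.17 over the 406 pairs of these 29 members, against 0.0049 over all pairs of tested miRNAs, as a description of libraries that share depth and scaling. The highest was 0.955 between miR-409-5p and miR-493b and the lowest -0.97 between miR-376c and miR-543. Among genes adjacent in the locus, miR-432 reached 0.56 with its neighbour miR-127 and -0.63 with its neighbour miR-136. Most pairs of all tested miRNAs lay between -0.62 and 0.65, so that these values do not show that neighbours differ.

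**Figure D5:**
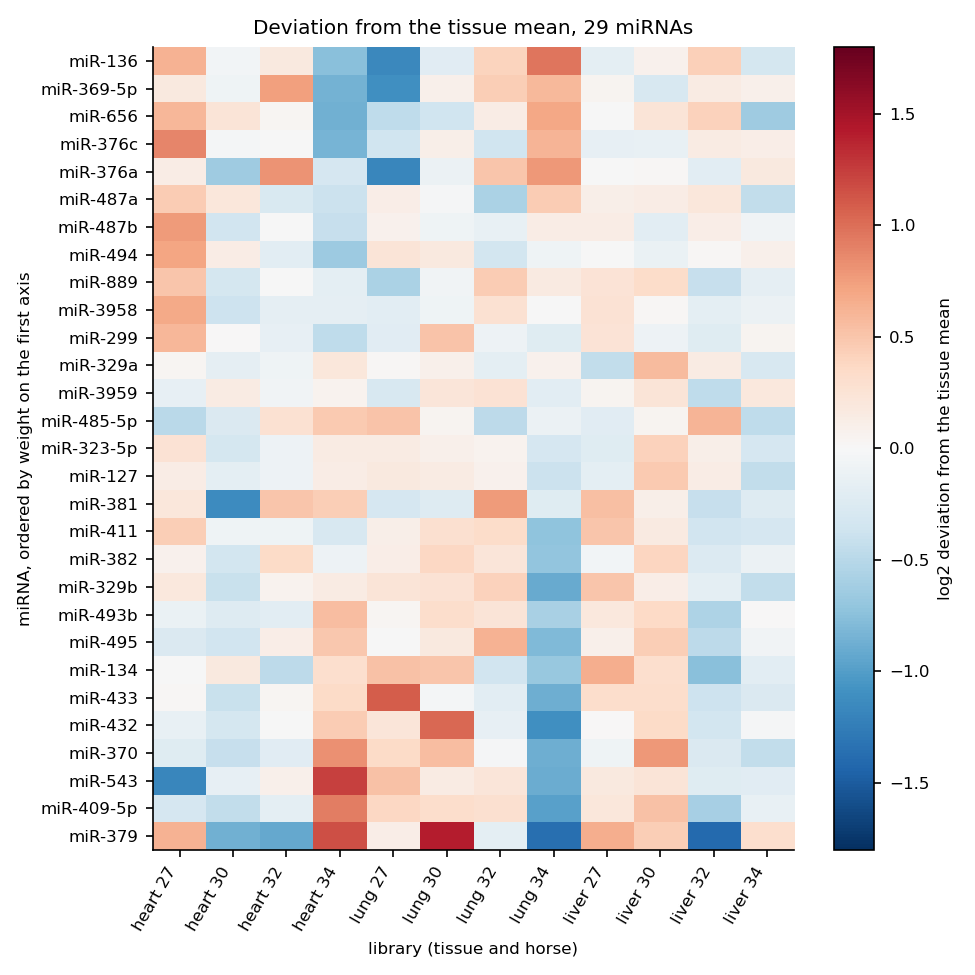
Deviation of each library from its tissue mean (log2, red above and blue below) for the 29 members above 0 in all libraries, ordered by weight on the first axis, with libraries as columns. The columns of heart and lung of horse 34 show opposite patterns, with miR-379 at the bottom at 1.15 and -1.36 and miR-136 at the top at -0.75 and 0.96.

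Imprinted miRNAs from other loci were compared. miR-483, within IGF2, had 3506, 2279, 5763 and 3549.6 normalized counts in liver of horses 27, 30, 32 and 34, and its highest value elsewhere was 924. miR-675, made from H19, had 466, 332, 356 and 363 in liver and at most 93.4 elsewhere. miR-335, within MEST, had 244, 274, 175 and 569 in liver and at most 112 elsewhere. All 3 were lower in heart (log2 differences -3.15, -3.24 and -3.25) and in lung (-3.47, -2.91 and -2.37) than in liver, and none was called between lung and heart (limma adjusted p from 0.147 to 0.646). miR-296, at the GNAS locus, was at 0 in heart and liver and at 10.5 and 7.72 in 2 lung libraries, and miR-298 had no entry in the table.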

How the data were processed

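Small RNA libraries of heart, lung and liver of 4 horses were used (12 libraries). By the study's methods the authors trimmed reads with Trim Galore, counted them with sRNAbench against miRBase and the horse genome EquCab3.0, and normalized them with DESeq2; the submitters' notes instead give Trimmomatic and BWA, besides bcl2fastq, FastQC and DESeq2. The deposited values are thus a signal, counts divided by 1 factor per library. The table also holds the authors' pooled mean and their comparison of liver over lung, which were not used. A value is a multiple (within 0.01) of a sixth of the lowest value above 0, since the minimum read count was 6. The test on log2(value + 1) took the 256 known miRNAs at 10 or more in 4 or more libraries and used limma 3.58.1 (trend in the variance, a mean for each tissue, R 4.3.3) and Benjamini-Hochberg adjustment, after checks on simulated data. Alternatives were pseudocounts of 0.5 and 10, filters, no fold minimum, scaling to the same total, TMM, a total without 9 muscle and liver miRNAs (chosen after seeing the data), the horse as a block, and leaving out horses or libraries. The horse number is the same animal and pairs the samples. Deviations correlated from -0.27 to 0.15 in 12 same-horse pairs (median -0.057). In 36 pairs of different horses they correlated from -0.27 to 0.36 (median 0.028), so that same-horse libraries were not more alike by this measure. The block still changed the calls of some members, given above. Values per library were given for the 12 members with the highest mean and the 5 with the largest non-overlapping change per comparison and direction (higher mean of at least 100); members whose call changed with scaling were named with both values, and others after their values were seen. Members and lists were chosen with earlier results of these data known. Gene order came from RefSeq (assembly TB-T2T), not the authors' build, so no coordinates are given. Libraries of a tissue come from separate animals. The p-values rest on the spread between 4 horses within tissues, pooled over all 12 libraries, also those of the tissue not compared. Without the block they leave the pairing by horse out. Python 3.11.15, numpy 2.4.6, pandas 2.3.3 and matplotlib 3.10.9 were used.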

Additional observations from a re-analysis of the deposited data

Results flagged for a closer look

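Within a tissue, 7 of 114 groups of 4 libraries had 1 library whose gap to the nearest other as a part of the group's range exceeded Dixon's critical value at 95%, where chance gives about 1 in 20. In heart of horse 34, miR-370 was at 371.84, miR-409-5p at 1223.21 and miR-493b at 427.37 normalized counts, against 156 to 182, 473 to 571 and 247 to 266 in the other heart libraries. In lung of horse 34, miR-409-5p was at 79.20, against 192 to 204. miR-3958 was at 364.27 in heart of horse 27, against 174 to 202. miR-299 was at 55.03 in lung of horse 30, against 32.8 to 35.8, and miR-381 at 383.07 in lung of horse 32, against 182 to 193.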

How the results depend on the processing

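The call of 1 member higher in heart than in liver became 0 with a pseudocount of 10, TMM, the same total, the total without 9 marker miRNAs and the replicate block (also with the same total), and 0 to 1 with libraries left out. Of all tested miRNAs, 10.2 to 20.7% were called higher under these settings and 16.8 to 21.5% with libraries left out. Members lower in heart than in liver numbered 32 with the same total (32 also with the block) and 4 to 13 with a horse or library left out. The shares of all tested miRNAs were 53.9% (53.5% with the block) and 23.0 to 28.5%. In lung versus heart, 2 members were higher (1 with the block) and 1 lower (1 with the block) with the same total, and 14 to 19 were lower with libraries left out. The shares of all tested miRNAs were 48.4% (47.3% with the block), 6.25% (6.64% with the block) and 16.4 to 20.3%. Reversed values with the same total, with and without the block, were the median of lung versus heart (0.14), miR-433 in heart versus liver (-0.18), and miR-329a (0.31), miR-369-5p (0.14), miR-370 (0.0042), miR-493b (0.088) and miR-889 (0.28) in lung versus heart; the same total divides by a sum of which 9 marker miRNAs hold 52.9 to 62.0% in heart. In lung versus liver 25 to 32 members were lower with libraries left out and 27 to 32 under the other settings run, against 24.6 to 27.7% and 23.8 to 28.1% of all tested miRNAs. The block alone kept 9, 28 and 18 of the calls of heart versus liver, lung versus liver and lung versus heart. Without the 9 marker miRNAs the mean share of the cluster was 0.33% in heart and 0.67% in liver. The mean share of all known miRNAs, with a library left out, ranged over 0.48 to 0.55% for liver, 0.12 to 0.15% for heart and 0.13 to 0.15% for lung. Tests on counts with edgeR or DESeq2 were not run, although the values were whole multiples of the step in each library. No hairpin had both arms listed, so that arm shares had no value. Depth limits the members near 6 reads, whose zeros are not absence.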

Other observations

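The 5 known miRNAs outside the cluster whose log2 levels over the 12 libraries followed the mean of the members' standardised levels most closely were miR-885-5p (Pearson r = 0.94), miR-365 (0.91), miR-193b (0.87), miR-2114 (0.82) and miR-8908m (0.80). The libraries share tissue, horse and depth, and no p is given. miR-365 had 5495 to 7889 normalized counts in liver, 2753 to 5602 in heart and 572 to 1120.3 in lung, the order of most members. miR-193b, whose gene is near miR-365 in mammals, had 529 to 679 in liver, 79.1 to 444 in heart and 72.4 to 203 in lung. miR-885-5p, one of the hepatocyte miRNAs used as markers, had 460.2 to 856 in liver, 10.4 to 12.3 in heart and 0 in lung. miR-2114 and miR-8908m were at 313 to 600.0 and 82.5 to 401 in liver and at most 23.5 and 0 elsewhere.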
